A study of Mus musculus with 6 samples.

Results

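Expression of 10 genes was followed in mouse liver libraries labelled as Kupffer cells: the cyclin-dependent kinase (CDK) inhibitors Cdkn1a, Cdkn1b and Cdkn1c, and 7 genes known as targets of p53, namely Mdm2, Ccng1, Btg2, Gdf15, Trp53inp1, Bax and Bbc3. Each symbol matched 1 row of the deposited table, so 10 of 56691 genes are described, and all 10 had enough reads to be tested. They were picked by symbol with results of this comparison already known, so their changes are a description and support nothing by themselves. The 3 libraries of 5-HT treated cells and the 3 libraries of untreated cells came from mice of genotype Vil1Cre-Myd88fl/fl. Kupffer cells are macrophages that live in the liver, but markers of liver endothelial cells stood at higher levels than theirs in these libraries (values follow the gene results). 5-HT is serotonin, and the comparison asks what differs with it. The mice carry a floxed Myd88 gene and a Cre recombinase driven by the intestinal epithelial promoter Vil1, so treated and untreated cells come from mice with the same deletion in the gut. The labels read here state no dose, route or duration of the treatment, and no age, sex or number of mice. The p-values thus cover the variation among the 6 libraries, part of which could be technical.

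CDK inhibitors bind complexes of cyclins and CDKs and stop a cell from starting or continuing a division. The Cip/Kip family, which Cdkn1a (p21), Cdkn1b (p27) and Cdkn1c (p57) make up, acts on several CDKs, and the INK4 family acts on CDK4 and CDK6. p53 is a transcription factor that is held at a low level by the ubiquitin ligase Mdm2, is released by DNA damage and other stress, and switches on Cdkn1a and genes of growth arrest, repair and apoptosis. Most Kupffer cells in an adult liver are not dividing, although they can renew themselves by division.

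Because the group is named for p53, the promoter sequences were searched for its binding motif, the p53 response element half-site of 10 bases, with up to 13 bases between a pair of half-sites. RefSeq windows on GRCm38.p6, from 250 bases before to 50 after a transcription start, were at hand for 8 of the 10 genes, in 12 windows. Trp53inp1 and Cdkn1c had none. A half-site was in 4 of the 12 windows and in 8.36% of all 32851 windows, and a pair lay in 1 of the 12 and in 0.0731% of all. The motif reads the same on both strands. The pair was in the upstream start of Cdkn1a, with half-sites beginning at -73 and -51 from the start and 12 bases between them. Only exact matches were taken. Directly after the half-site at -51 the window reads tgacatgttc, which misses the motif at its first letter and is therefore not marked. Mdm2 had GAACTTGCCT at -186, Ccng1 GGGCAAGCCT at -185 and Bax AGGCAAGCTT at -201. Neither window of Gdf15 held a match, nor did those of Cdkn1b, Btg2 and Bbc3, which says only that these letters are not in these windows. The 3 sequences below are those of the inhibitor that p53 is best known for, of its feedback ligase, and of Gdf15, a target that was lower with 5-HT; capitals mark half-sites.
Cdkn1a, chr17:29090729-29091028, plus strand: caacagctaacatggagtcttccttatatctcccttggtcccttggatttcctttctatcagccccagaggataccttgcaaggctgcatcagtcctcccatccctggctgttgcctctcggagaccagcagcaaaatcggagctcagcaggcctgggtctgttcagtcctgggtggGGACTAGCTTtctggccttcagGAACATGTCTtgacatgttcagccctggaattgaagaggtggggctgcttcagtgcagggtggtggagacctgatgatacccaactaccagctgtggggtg
Mdm2, chr10:117710709-117711008, minus strand: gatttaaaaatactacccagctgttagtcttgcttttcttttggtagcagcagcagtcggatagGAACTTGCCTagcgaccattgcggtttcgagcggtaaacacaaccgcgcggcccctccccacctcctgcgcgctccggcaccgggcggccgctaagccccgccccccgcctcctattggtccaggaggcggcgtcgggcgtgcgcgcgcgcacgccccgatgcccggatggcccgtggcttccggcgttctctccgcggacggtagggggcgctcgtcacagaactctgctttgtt
Gdf15, chr8:70632407-70632706, minus strand: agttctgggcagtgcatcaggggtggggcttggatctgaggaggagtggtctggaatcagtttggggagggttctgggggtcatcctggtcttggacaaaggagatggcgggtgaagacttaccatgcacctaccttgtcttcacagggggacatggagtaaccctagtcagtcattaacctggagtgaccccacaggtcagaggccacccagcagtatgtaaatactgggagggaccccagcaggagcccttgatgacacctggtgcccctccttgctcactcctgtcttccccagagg

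Of the 10 genes, Cdkn1c, Gdf15 and Trp53inp1 were lower in 5-HT treated cells at an edgeR adjusted p under 0.05, and none was higher. Over all 16641 genes tested, 3.19% were called lower and 4.55% higher, 7.74% in all, and since the genes were picked with this comparison known, nothing is read from that difference. By an unadjusted edgeR p under 0.05, 1 of the 10 was higher and 3 were lower, against 24.2% of all tested genes in either direction. DESeq2 called 0 higher and 3 lower, against 12.4% of all genes it tested. Cdkn1c and Gdf15 were called lower by edgeR with a fall of at least 2-fold, as were 1.2% of all tested genes. The groups did not overlap for 4 of the 10 genes, the same 3 and Mdm2, against 29.6% of all tested genes. The median log2 fold change of the 10 was -0.083, and that of all tested genes was -0.018.

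**Figure D1:**
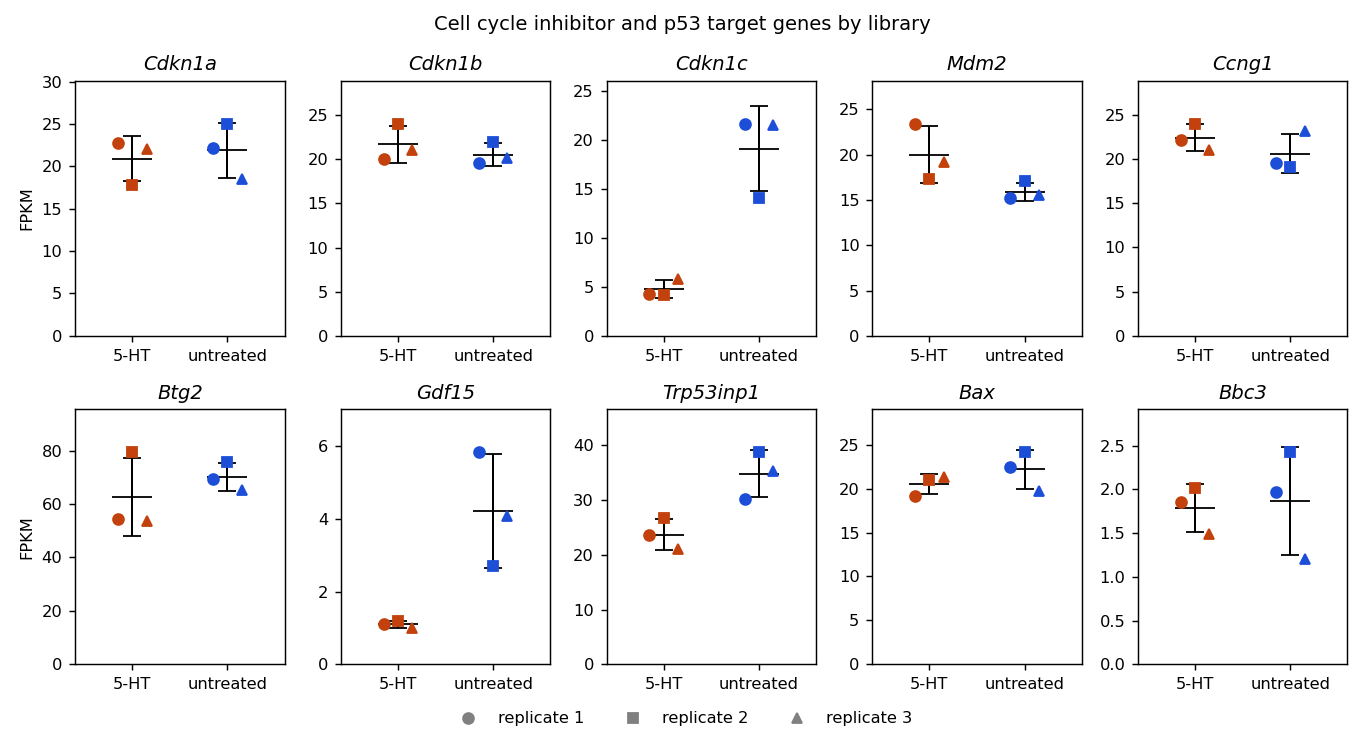
Level of each of the 10 genes in FPKM (vertical axes, from 0), with 5-HT treated libraries on the left of each panel and untreated libraries on the right. Points are libraries, shaped by replicate number, and bars are the mean ± SD of 3 libraries. Cdkn1c, Gdf15 and Trp53inp1 are lower in every 5-HT treated library than in any untreated library.

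In FPKM, a read count divided by exon length and library total, a scale that allows genes of different length to be compared, Btg2 was the most abundant of the 10, at 66.3 ± 10.7 FPKM (SD, n = 6 libraries). Its lowest library, at 53.7 FPKM, lay above the highest of Trp53inp1, at 38.8 FPKM. Below Btg2 no neighbours in the order of mean level were apart in their ranges, which pool both groups. Within each group, however, every Cdkn1c library lay above every Gdf15 library. Among 5-HT treated libraries the lowest Cdkn1c value was 4.21 and the highest Gdf15 value 1.19 FPKM. Among untreated libraries these were 14.09 and 5.85 FPKM. Trp53inp1 averaged 29.3 FPKM, and Ccng1, Cdkn1a, Bax and Cdkn1b lay within 21.5 to 21.1 FPKM. They were followed by Mdm2 at 18.0, Cdkn1c at 11.9, Gdf15 at 2.66 and Bbc3 at 1.83 FPKM. For orientation, the median tested gene had a mean of 4.39 FPKM, and the mean of Cdkn1a exceeded that of 86.2% of tested genes.

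Of the 3 Cip/Kip inhibitors, Cdkn1c fell and the other 2 did not pass the test. Cdkn1c encodes p57, an inhibitor expressed from the maternal allele and known for holding cells out of division in development and in stem cells. Its FPKM was 4.30, 4.21 and 5.82 in 5-HT treated replicates 1 to 3, and 21.65, 14.09 and 21.52 in untreated replicates 1 to 3. The highest 5-HT treated library had 41.3% of the lowest untreated level, which was that of replicate 2. The read counts behind these values were 140, 132 and 203 in 5-HT treated cells, against 803, 524 and 836 in untreated cells. Cdkn1c was thus 3.98-fold lower with 5-HT, with a 95% interval from 2.76-fold to 5.73-fold (log2 -1.99, SE 0.23, edgeR adjusted p = 0.00352). In GRCm38, Cdkn1c (ENSMUSG00000037664) spans positions 143458339 to 143461050 of chromosome 7 on the minus strand. Its call held without each library in turn, with an adjusted p between 0.00212 and 0.0258.

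Cdkn1a, which encodes p21, the inhibitor through which p53 arrests the cycle, had 22.81, 17.85 and 22.05 FPKM in 5-HT treated cells and 22.16, 25.05 and 18.56 FPKM in untreated cells. The groups overlapped throughout. The log2 fold change was -0.06 with a 95% interval from -0.38 to 0.26 (edgeR adjusted p = 0.834). Cdkn1b encodes p27, an inhibitor abundant in resting cells. It had 20.05, 24.04 and 21.01 FPKM in 5-HT treated cells and 19.54, 22 and 20.08 FPKM in untreated cells, again with overlap (log2 0.09, 95% interval -0.14 to 0.31, edgeR adjusted p = 0.649). In untreated cells the mean of Cdkn1c, at 19.1 FPKM, stood beside 21.9 FPKM for Cdkn1a and 20.5 FPKM for Cdkn1b. In 5-HT treated cells it was 4.78 FPKM, beside 20.9 and 21.7 FPKM for the other 2.

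The inhibitors of the INK4 family and Cdkn3, a phosphatase that acts on CDKs, did not pass. Cdkn1c was the only call among the 8 inhibitor genes tested, by edgeR and by DESeq2. Over all genes tested, edgeR called 7.74% and DESeq2 12.4% in either direction. Cdkn2c, which encodes p18, had 3.56, 3.80 and 5.58 FPKM in 5-HT treated cells and 6.22, 5.31 and 6.53 FPKM in untreated cells, with overlapping groups (log2 -0.47, edgeR adjusted p = 0.22). Cdkn2b had a log2 value of 0.89 at levels under 2 FPKM (edgeR adjusted p = 0.156). Cdkn2c, Cdkn2b and Cdkn2d are named after their values were seen. Cdkn2d, the most abundant INK4 gene, had a log2 value of -0.01.

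**Figure D2:**
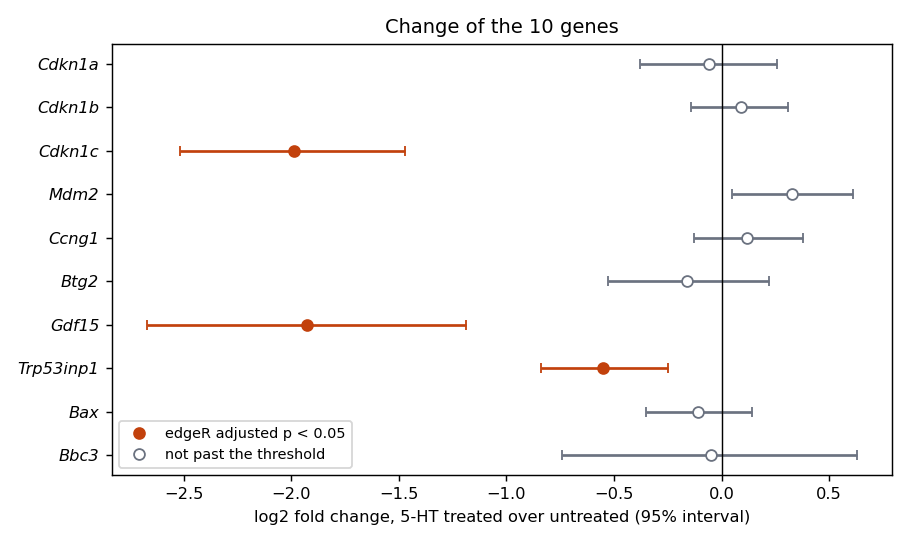
Log2 fold change of each gene, 5-HT treated over untreated (horizontal axis), with its 95% interval from the edgeR fit; filled points have an adjusted p under 0.05. Cdkn1c and Gdf15 lie near -2, Trp53inp1 at -0.55, and the other 7 genes between -0.16 and 0.33.

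Neither of the p53 targets that act back on p53 passed the test. Mdm2, the ligase that marks p53 for degradation, had 23.44, 17.32 and 19.23 FPKM in 5-HT treated cells, against 15.20, 17.06 and 15.54 FPKM in untreated cells. All 5-HT treated libraries lay above all untreated ones, replicate 2 of the treated group by a small margin over replicate 2 of the untreated group. The log2 fold change of 0.33 (95% interval 0.05 to 0.61) did not pass over all genes (unadjusted p = 0.0251, edgeR adjusted p = 0.14). Ccng1, which encodes cyclin G1, a partner of a phosphatase that acts on Mdm2, had 22.09, 24.01 and 20.97 FPKM in 5-HT treated cells and 19.52, 19.05 and 23.14 FPKM in untreated cells. Its groups overlapped (log2 0.12, 95% interval -0.13 to 0.38, edgeR adjusted p = 0.552).

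Gdf15 encodes a secreted protein of the TGF-beta superfamily that rises with cell stress and acts on appetite through a receptor in the brainstem. It had 1.11, 1.19 and 1.01 FPKM in 5-HT treated cells, against 5.85, 2.72 and 4.08 FPKM in untreated cells. The 3 treated libraries lay close together, with a coefficient of variation of 8.17%, while the untreated ones spread by 37.2%, replicate 2 being the lowest. The counts were 33, 34 and 32 in 5-HT treated cells and 197, 92 and 144 in untreated cells. The gene was 3.80-fold lower with 5-HT (95% interval 2.28-fold to 6.34-fold, log2 -1.93, SE 0.32, edgeR adjusted p = 0.0137). In GRCm38, Gdf15 (ENSMUSG00000038508) spans positions 70629393 to 70632456 of chromosome 8 on the minus strand. Its call was lost without 5-HT treated replicate 1, without untreated replicate 1 and without untreated replicate 3, with an adjusted p up to 0.0644. On the log2(FPKM + 5) scale, which compresses genes of low level, its log2 value was -0.58.

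Trp53inp1 encodes a stress protein that works with p53 and in autophagy. It had 23.55, 26.68 and 21 FPKM in 5-HT treated cells, against 30.25, 38.80 and 35.36 FPKM in untreated cells. The groups did not overlap, and the highest treated library reached 88.2% of the lowest untreated level. The change was 1.46-fold lower with 5-HT (log2 -0.55, SE 0.12, edgeR adjusted p = 0.0415). It was near the threshold: the call was lost in 9 of 16 alternative settings, among them 5 of the 6 that left out 1 library, the exception being the fit without 5-HT treated replicate 2. The adjusted p reached 0.145. In GRCm38, Trp53inp1 (ENSMUSG00000028211) spans positions 11156431 to 11174379 of chromosome 4 on the plus strand.

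Btg2, an antiproliferative gene that is also induced soon after many stimuli, had 54.45, 79.54 and 53.73 FPKM in 5-HT treated cells and 69.37, 75.59 and 65.32 FPKM in untreated cells. Replicate 2 of the treated group was the highest of all 6 libraries, and the other 2 treated libraries were the lowest. The log2 fold change was -0.16 (95% interval -0.53 to 0.22, edgeR adjusted p = 0.61). Without 5-HT treated replicate 2 it was -0.36, with an adjusted p of 0.0701.

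The apoptosis genes of the group showed overlapping levels. Bax, which encodes a protein that forms pores in the outer mitochondrial membrane, had 19.14, 20.98 and 21.31 FPKM in 5-HT treated cells and 22.50, 24.18 and 19.78 FPKM in untreated cells (log2 -0.11, 95% interval -0.35 to 0.14, edgeR adjusted p = 0.601). Bbc3, which encodes PUMA, a BH3-only activator of Bax, had 1.86, 2.02 and 1.49 FPKM in 5-HT treated cells and 1.97, 2.43 and 1.21 FPKM in untreated cells. With 54 to 66 counts in treated and 49 to 94 in untreated libraries, its interval was wide (log2 -0.05, 95% interval -0.74 to 0.63, edgeR adjusted p = 0.937), so a change of 1.5-fold in either direction lay within it. The signs of Cdkn1a and Bbc3 turned when single libraries were left out.

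**Figure D3:**
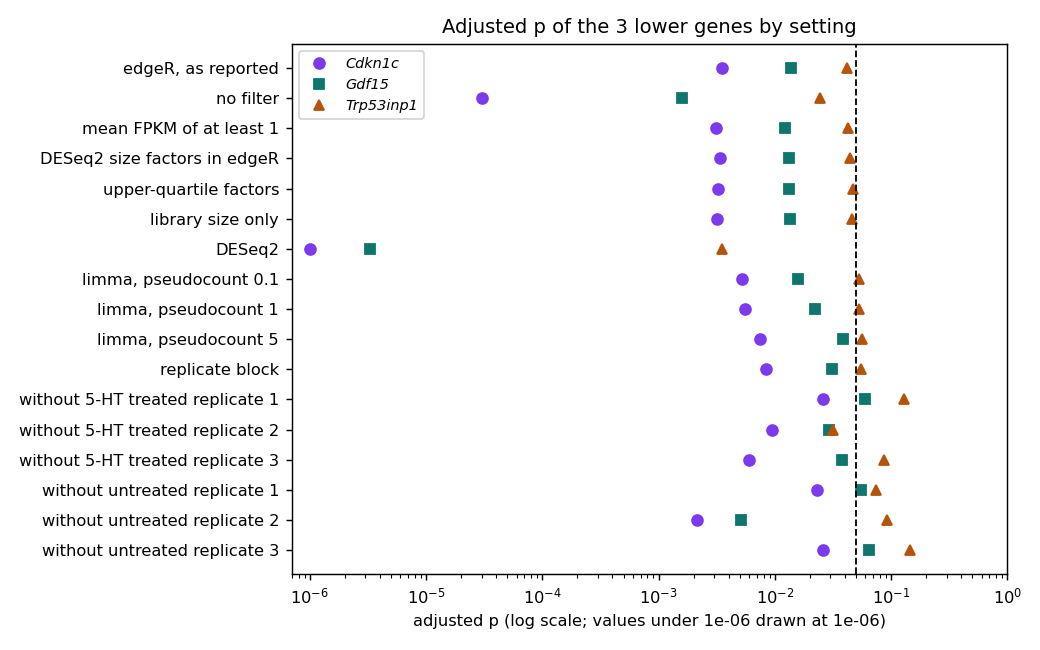
Adjusted p (horizontal axis, log scale) of Cdkn1c, Gdf15 and Trp53inp1 as reported and in 16 alternative settings (rows); the dashed line is the threshold of 0.05, and values under 1e-06 are drawn at 1e-06. Cdkn1c lies left of the line in every row, Gdf15 right of it in 3 and Trp53inp1 in 9.

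p53 itself and other genes of its pathway were taken from lists. Trp53, the gene of p53, had 16.80, 15.71 and 16.08 FPKM in 5-HT treated cells, against 12.02, 11.21 and 9.97 FPKM in untreated cells. It rose 1.47-fold with no overlap (log2 0.56, SE 0.09, edgeR adjusted p = 0.0142), though the adjusted p passed 0.05 without 5-HT treated replicate 1 and without untreated replicate 3 (up to 0.0642). Atm, the kinase that signals DNA breaks to p53, had 2.81, 2.24 and 1.73 FPKM in 5-HT treated cells, against 3.89, 4.61 and 3.95 FPKM in untreated cells. It fell 1.83-fold (log2 -0.87, SE 0.17, edgeR adjusted p = 0.0247), and 4 of the 6 fits with 1 library removed no longer called it. These were the only edgeR calls among 18 tested genes of p53 and its regulators, whose median log2 value was 0.01. Groups did not overlap for 9 of the 18, against 29.6% of all tested genes. At an unadjusted edgeR p under 0.05 there were 7, against 24.2%. DESeq2 called 1 higher and 1 lower, against 12.4% of all genes it tested. Over all tested genes 7.74% were called in either direction.

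Among 28 further p53 targets, 3 rose and 1 fell, and the median log2 value was -0.03. The shares over all tested genes were 4.55% higher and 3.19% lower. Sesn1, a sestrin that restrains mTORC1, had 12.02, 13.89 and 12.31 FPKM in 5-HT treated cells, against 24.03, 23.67 and 23.62 FPKM in untreated cells. It fell 1.86-fold (log2 -0.89, SE 0.09, edgeR adjusted p = 0.00234), with groups far apart for their spread. Dram1, a lysosomal membrane protein of autophagy, went the other way: it had 13.36, 10.71 and 10.41 FPKM in 5-HT treated cells, against 4.51, 4.39 and 4.22 FPKM in untreated cells (log2 1.40, SE 0.12, edgeR adjusted p = 0.00165). Both calls held without each library in turn.

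Rap2b, a small GTPase of the Ras family, rose 1.68-fold (4.44 ± 0.202 FPKM in 5-HT treated cells and 2.66 ± 0.287 FPKM in untreated cells, SD, n = 3 each, edgeR adjusted p = 0.0127). Its call was lost without untreated replicate 1. Gadd45a, a growth arrest and DNA damage gene, rose 1.55-fold (12.3 ± 1.09 FPKM in 5-HT treated cells and 8.01 ± 0.514 FPKM in untreated cells, edgeR adjusted p = 0.0284), and lost the call in each of the 6 fits that left out 1 library (adjusted p 0.0528 to 0.13). The other 24 tested targets did not pass, among them Fas, Pmaip1, Plk2 and Zmat3 (picked with their values known), whose groups overlapped. Of all 28, however, 13 had groups that did not overlap, against 29.6% of all tested genes. At an unadjusted edgeR p under 0.05 there were 8 of the 28, against 24.2%. DESeq2 called 4 higher and 1 lower, against 12.4% of all genes it tested. Of the 7 p53 targets described above and the 28 listed here, the calls therefore ran in both directions, with 3 higher and 3 lower. Beside them stand 4.55% higher and 3.19% lower over all tested genes.

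**Figure D4:**
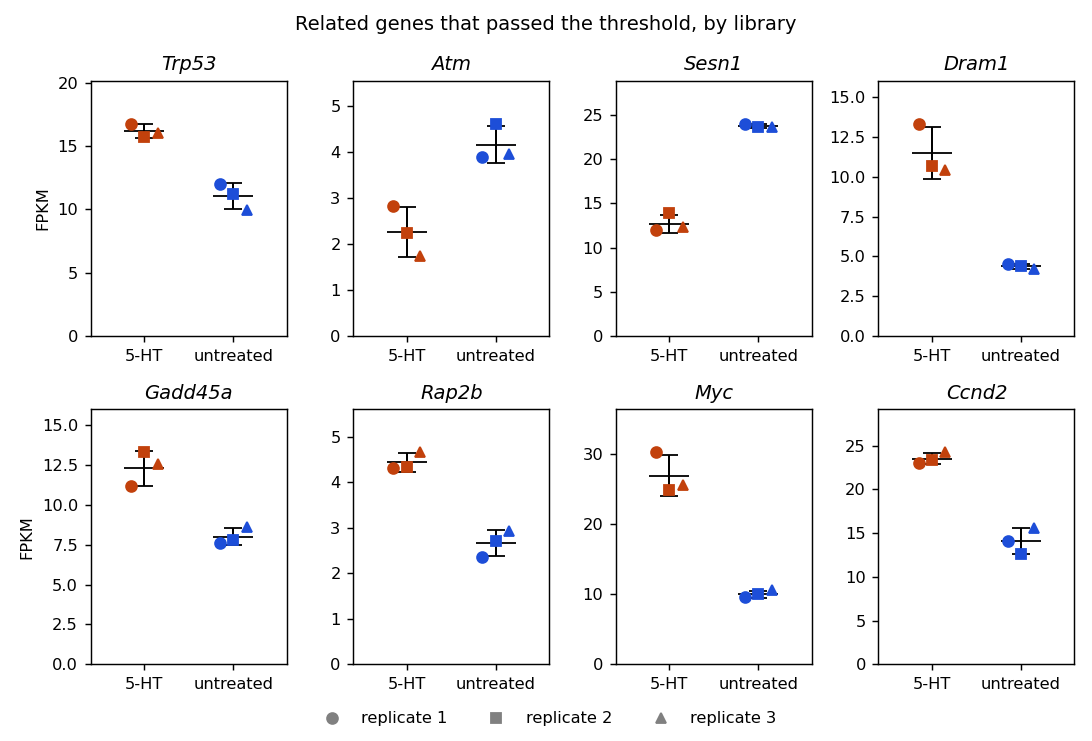
FPKM of 8 related genes past the threshold (vertical axes, from 0), with 5-HT treated libraries on the left of each panel and untreated ones on the right; points are libraries, bars the mean ± SD of 3. In each panel the groups do not overlap: Trp53, Dram1, Gadd45a, Rap2b, Myc and Ccnd2 are higher in 5-HT treated libraries, and Atm and Sesn1 lower.

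Bax and Bbc3 belong to the Bcl2 family, in which 3 of 19 tested genes rose and none fell (median log2 0.11). At an unadjusted edgeR p under 0.05 there were 7 in either direction, against 24.2% of all tested genes. DESeq2 called 5 higher and 0 lower, against 12.4% of all genes it tested in either direction. Over all tested genes edgeR called 4.55% higher and 3.19% lower. The 3 Bcl2 family genes that rose by edgeR were Mcl1, Bcl2a1a and Bcl2a1b. Mcl1 had 224.98, 247.18 and 223.11 FPKM in 5-HT treated cells, against 138.95, 152.66 and 139.85 FPKM in untreated cells (log2 0.70, SE 0.09, edgeR adjusted p = 0.00701). It no longer passed without untreated replicate 1 or without untreated replicate 3. Bcl2a1a and Bcl2a1b had log2 values of 1.1 and 0.62 (edgeR adjusted p = 0.0193 and 0.025). Bcl2a1a lost its call in 4 of the 6 fits with 1 library removed (adjusted p up to 0.096), and Bcl2a1b in 5 of the 6 and with the replicate block (adjusted p up to 0.105). These near-identical copies can share reads, so they are uncertain as single genes.

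CDK inhibitors act on the step from G1 into DNA synthesis. Of 22 G1 cyclins, CDKs and other genes around the retinoblastoma pathway, Myc and Ccnd2 rose and Rb1 fell (median log2 0.09). Beside them stand 7.74% of all tested genes called in either direction. At an unadjusted edgeR p under 0.05 there were 7 of the 22, against 24.2% of all tested genes. DESeq2 called 2 higher and 2 lower, against 12.4% of all genes it tested. Myc, a driver of growth and division, had 30.28, 24.82 and 25.52 FPKM in 5-HT treated cells, against 9.55, 9.97 and 10.53 FPKM in untreated cells, and rose 2.69-fold (log2 1.43, SE 0.10, edgeR adjusted p = 0.00131). Ccnd2, the gene of cyclin D2, had 22.99, 23.33 and 24.27 FPKM in 5-HT treated cells, against 14.08, 12.61 and 15.55 FPKM in untreated cells (log2 0.75, edgeR adjusted p = 0.00907). Myc held its call in all alternatives, and Ccnd2 lost it without untreated replicate 1. Rb1, the retinoblastoma gene, fell 1.29-fold (edgeR adjusted p = 0.0429), which 11 of 16 alternatives did not call.

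None of 30 proliferation genes passed by edgeR, beside 7.74% of all tested genes. At an unadjusted edgeR p under 0.05 there were 4 proliferation genes, against 24.2% of all tested genes. DESeq2 called 0 higher and 1 lower, against 12.4% of all genes it tested in either direction. Their median log2 value was -0.03. Pcna, the clamp of the replication fork, had 35.04, 35.82 and 37.76 FPKM in 5-HT treated cells and 37.20, 31.99 and 36.85 FPKM in untreated cells. Mcm3, a subunit of the replicative helicase, had 16.11, 14.55 and 18.52 FPKM in 5-HT treated cells and 15.64, 14.89 and 16.15 FPKM in untreated cells. Both overlapped. Among 7 relatives of the members, 0 passed by edgeR, 0 had an unadjusted p under 0.05 and DESeq2 called 0; the most abundant, Btg1 and Ccni, had log2 values of 0.24 and -0.12.

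**Figure D5:**
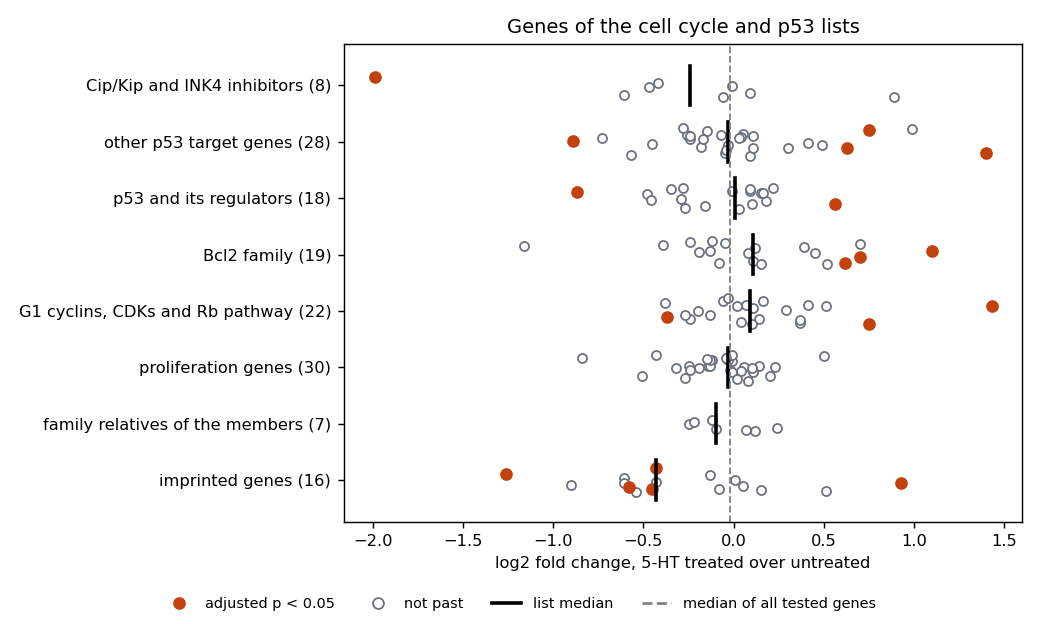
Log2 fold change, 5-HT treated over untreated (horizontal axis), of each tested gene in 8 lists, with the number tested in brackets. Filled points have an edgeR adjusted p under 0.05, black strokes are list medians and the dashed line is the median of all tested genes; the proliferation list has no filled point and the p53 lists have them on both sides.

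Cdkn1c is an imprinted gene, and other imprinted genes were listed beside it. Of 16 tested, 1 rose and 4 fell, with a median log2 value of -0.43. Over all tested genes 4.55% were called higher and 3.19% lower. The list was chosen with earlier results known, so nothing is read from the difference. Sgce, the gene of epsilon-sarcoglycan, had 4.47, 4.49 and 4.47 FPKM in 5-HT treated cells, against 6.82, 6.45 and 6.94 FPKM in untreated cells (log2 -0.58, edgeR adjusted p = 0.00738). Gnas, the gene of the stimulatory G-protein subunit, fell 1.35-fold (edgeR adjusted p = 0.0295), Plagl1 1.37-fold (edgeR adjusted p = 0.0405) and the noncoding RNA Meg3 2.40-fold at levels under 1 FPKM (edgeR adjusted p = 0.0324). Gnas, Plagl1 and Meg3 lost their calls in 5 of 16, 11 of 16 and 8 of 15 alternatives. Mest rose 1.90-fold, with 14.81, 14.67 and 11.48 FPKM in 5-HT treated cells, against 7.28, 7.95 and 6.41 FPKM in untreated cells (edgeR adjusted p = 0.00676). Kcnq1, which lies in the same imprinted region as Cdkn1c and is named after its values were seen, had a log2 value of -0.43 and did not pass (edgeR adjusted p = 0.0687). Other listed genes of that region went in both directions and did not pass either. Log2 values were -0.61 for Kcnq1ot1, 0.51 for Slc22a18 and 0.05 for Cd81 (edgeR adjusted p = 0.317, 0.509 and 0.837). The first and second of these were at low levels. Kcnq1ot1 averaged 0.09 FPKM in 5-HT treated and 0.137 FPKM in untreated cells, and Slc22a18 1.22 and 0.857 FPKM. Phlda2, also listed from that region, was not among the tested genes.

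The genes whose profile over the 6 libraries was most like those of the 3 lower members were sought among the 7791 tested genes that averaged 5 FPKM or more, by the root mean square difference of centred log2(FPKM + 1) values. Nearest to Cdkn1c were Sntb1, a syntrophin of the membrane skeleton (0.177), Gpd1, a glycerol-3-phosphate dehydrogenase (0.187), and Art4, an ADP-ribosyltransferase (0.193). Sntb1 had 3.68, 4.05 and 3.52 FPKM in 5-HT treated cells, against 16.40, 12.21 and 16.42 FPKM in untreated cells. Nearest to Gdf15 were Lfng, a glycosyltransferase that modifies Notch (0.155), Tkfc (0.167) and the phosphatidate phosphatase gene Lpin1 (0.171). By edgeR these fell less than Gdf15, with log2 values of -1.22, -1.26 and -1.28 against -1.93. At a mean of 2.66 FPKM, Gdf15 itself lay under the bound of 5 FPKM. On the log2(FPKM + 1) scale used for the search its log2 value was -1.27. Lpin1 had 6.34, 5.75 and 6.62 FPKM in 5-HT treated cells, against 18.31, 9.61 and 17.70 FPKM in untreated cells. Its low untreated replicate 2, shared with Gdf15, follows from the selection by profile and is no separate observation. Nearest to Trp53inp1 were Hs2st1, a heparan sulfate sulfotransferase (0.0727), Farp1 (0.0851) and the Mediator kinase gene Cdk19 (0.0854), the last with an edgeR adjusted p of 0.0899.

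The libraries held markers of several cell types. The 16 Kupffer cell markers were present, with summed levels of 1826.7 to 2155.2 FPKM in 5-HT treated and 1222.9 to 1689.0 FPKM in untreated libraries, but the 15 liver endothelial markers were higher, with sums of 3903.0 to 5323.2 FPKM in 5-HT treated and 5083.9 to 5140.9 FPKM in untreated libraries. The median marker of the Kupffer cell list had 79.5 FPKM and that of the endothelial list 348 FPKM. No marker of either list was at 0 in all libraries. The most abundant Kupffer cell markers, Cd5l and C1qb, averaged 362 ± 52.9 and 309 ± 27.7 FPKM in 5-HT treated cells and 214 ± 51.8 and 236 ± 38.8 FPKM in untreated cells (SD, n = 3 each). The most abundant endothelial markers, Lyve1 and Clec4g, averaged 887 ± 120 and 536 ± 110 FPKM in 5-HT treated cells and 257 ± 10.2 and 691 ± 27.9 FPKM in untreated cells. By edgeR, 4 Kupffer cell markers rose and none fell (median log2 0.44). DESeq2 called 8 of them higher and 0 lower, against 12.4% of all genes it tested in either direction. Of the endothelial markers, 1 rose and 4 fell by edgeR (median log2 -0.36). Over all tested genes edgeR called 4.55% higher and 3.19% lower. In bulk samples, fewer cells of a type and less RNA per cell cannot be told apart.

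Of the stellate cell, hepatocyte and neutrophil markers, only the neutrophil sums lay apart between the groups. Log2 values were negative for 14 of 15 stellate cell and fibroblast markers (median -0.89), with sums of 111.0, 195.2 and 111.7 FPKM in 5-HT treated replicates 1 to 3 and 255.1, 187.6 and 249.5 FPKM in untreated replicates 1 to 3, so that the groups overlapped. Reln fell and none rose by edgeR. At an unadjusted edgeR p under 0.05 there were 6 stellate cell and fibroblast markers, and DESeq2 called 0 higher and 2 lower. For these counts and those of the hepatocyte markers, the shares over all genes were 24.2% at an unadjusted edgeR p under 0.05 and 12.4% by DESeq2. Of 14 hepatocyte markers none passed (3 at an unadjusted p under 0.05; DESeq2 called 0 higher and 3 lower), and their sums overlapped, at 817.6 to 2191.3 FPKM in 5-HT treated and 1064.2 to 1849.1 FPKM in untreated libraries. Of 10 neutrophil markers tested (13 listed), 6 rose by edgeR (median log2 1.54), beside 4.55% of all tested genes. Another 3 had negative log2 values and did not pass, namely Ngp (-0.81), Ltf (-0.33) and Mpo (-0.86). The sums were 354.9 to 929.8 FPKM in 5-HT treated and 145.3 to 178.3 FPKM in untreated libraries. Most abundant were S100a9, averaging 301 FPKM in 5-HT treated and 79.9 FPKM in untreated cells, and S100a8, averaging 141 and 32.6 FPKM. The part of the endothelial, stellate cell, hepatocyte and neutrophil markers in the results was not tested.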

How the data were processed

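Messenger RNA libraries were made from 6 samples, 3 of 5-HT treated and 3 of untreated cells, and sequenced on a NovaSeq system, per the labels' protocols. The authors deposited a raw read count and an FPKM value for each of 56691 genes and each library; HISAT2 2.2.1, featureCounts 2.0.1 and mm10 are named in the submitters' processing notes without their roles, and no source used here says if strand was used in counting. Of 80620 deposited FPKM values of at least 1, 100% lay within 0.5% or rounding of the value computed from count, exonic length and total count. Library totals were 15390956 to 17093251 counts in the 5-HT treated and 18187617 to 19050039 counts in the untreated group.

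Counts were tested in R 4.3.3 with edgeR 4.0.16 (filterByExpr, TMM scaling, quasi-likelihood F test, two-sided) over all 16641 genes passing the filter, with Benjamini-Hochberg adjustment and a threshold of 0.05. Each standard error is the log2 fold change over the root of its F statistic, and 95% intervals use the fit's degrees of freedom. The steps were tested on simulated data. Alternatives were other filters and scalings, DESeq2 1.42.0, limma 3.58.1 on log2(FPKM + 0.1), log2(FPKM + 1) and log2(FPKM + 5), a fit with the replicate number as a block, and fits without 1 library each. Members, 8 program lists and 10 cell type lists were chosen with earlier results of these data known. Named genes were every member; from each program list up to 5 called genes of smallest p, or the 2 most abundant where none was called; and 3 genes of most similar profile per called member; and the 2 most abundant genes of a cell type list shown. Positions are those of GENCODE M21 (GRCm38) by identifier, since the deposited start and end were identical for only 1472 of 52073 matched genes.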

Additional observations from a re-analysis of the deposited data

How the results depend on the processing

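Among the 10 genes, 3 were lower as reported and 1 to 3 without 1 library in turn; it was 1 when 5-HT treated replicate 1, untreated replicate 1 or untreated replicate 3 was removed, and none was higher in any setting. Over all genes, 757 were higher and 531 lower, against 1150 and 955 by DESeq2, 218 to 672 and 111 to 675 without 1 library in turn, and 542 and 354 with the replicate block. In the program lists 10 genes were higher and 8 lower; without 1 library in turn these were 4 to 9 and 3 to 6, and the lower ones were 5 with limma at each of the 3 pseudocounts and 4 with the replicate block. Same-numbered libraries deviated together little (correlations 0.0757, 0.0616 and -0.0161). With 3 libraries a group this cannot exclude a pairing, and the labels state none. Under the block Trp53inp1 lost its call (edgeR adjusted p 0.0551). Cdkn1c kept its call in all 16 alternatives, with log2 values from -2.18 to -1.29. Signs turned without single libraries for Cdkn1a (0.04 without 5-HT treated replicate 2 and 0.03 without untreated replicate 2), Bbc3 (0.05 without 5-HT treated replicate 3 and 0.17 without untreated replicate 2), Pcna (-0.00 and -0.04 without the same libraries), Mcm3 (-0.03 without 5-HT treated replicate 3) and Btg1 (-0.01 without 5-HT treated replicate 2). Over the fits without 1 library, log2 values ran from -0.16 to 0.04 for Cdkn1a, -0.28 to 0.17 for Bbc3, -0.04 to 0.08 for Pcna, -0.03 to 0.16 for Mcm3 and -0.01 to 0.40 for Btg1. Fits without a library compare 2 samples with 3; the cause of these changes was not tested. At 49 to 94 counts a library, the depth of Bbc3 was low. Gdf15 had fewer still in 5-HT treated libraries, at 33, 34 and 32 counts.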

Other observations

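For the remaining cell types the summed levels of the groups overlapped. The summed level of 6 cholangiocyte markers was 242.9 to 667.3 FPKM in 5-HT treated and 218.0 to 979.5 FPKM in untreated libraries, replicate 2 being the highest in both. Monocyte and dendritic cell markers summed to 148.7 to 274.5 FPKM in 5-HT treated and 142.5 to 252.1 FPKM in untreated libraries. T and NK cell markers ran from 77.4 to 150.4 FPKM in 5-HT treated and from 67.4 to 193.4 FPKM in untreated libraries, and erythroid markers from 25.2 to 133.6 FPKM in 5-HT treated and from 21.2 to 146.6 FPKM in untreated libraries. B and plasma cell markers summed to 155.4 to 440.6 FPKM in 5-HT treated and 138.9 to 203.6 FPKM in untreated libraries. Of the 9 tested, 2 rose, Xbp1 and Sdc1 (the second was picked with its values known), beside 4.55% of all tested genes. No marker of the other 4 lists passed by edgeR. At an unadjusted edgeR p under 0.05 there were 0 cholangiocyte, 0 monocyte and dendritic cell, 3 T and NK cell and 1 erythroid markers. The share over all tested genes was 24.2%. DESeq2 called 1 T and NK cell marker higher and 1 erythroid marker lower, against 12.4% of all genes it tested.

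The pathway column of the authors' deposited table placed Cdkn1a, Ccng1, Mdm2, Bax and Bbc3 under p53 signaling, a term held by 196 genes there, and Cdkn1a, Cdkn1b, Cdkn1c and Mdm2 under cell cycle, held by 253. The other 5 members, Cdkn1b, Cdkn1c, Btg2, Gdf15 and Trp53inp1, were outside the p53 term.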
